A study of Mus musculus with 11 samples.

Results

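Open chromatin at the genes of 4 primitive endoderm transcription factors, Gata4, Gata6, Sox17 and Foxa2, was compared between 4 mouse embryonic stem cell lines by ATAC-seq, which counts the fragments that the Tn5 transposase releases from accessible DNA. A region of the deposited count table belonged to a locus when its start lay in chr14:63180000-63290000 (Gata4), chr18:11030000-11110000 (Gata6), chr1:4470000-4520000 (Sox17) or chr2:148020000-148070000 (Foxa2) of GRCm38. These windows held 37 of the 248336 regions in the table, 13 at Gata4, 10 at Gata6, 5 at Sox17 and 9 at Foxa2. All 37 passed the filter on low counts.

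The lines came from C57BL/6J mice (line B6 5-1, called B6; 3 libraries), DBA/2J mice (line D2 5-5, called D2; 3 libraries) and a pair of congenic strains in which a stretch of chromosome 13 had been swapped. B6-13D2 (line QJ 6-1; 2 libraries) is labelled B6.D2-(rs30079041-rs51756099)/Bakr and holds D2 sequence at the swapped stretch on a B6 genome. D2-13B6 (line XE 2-4; 3 libraries) is labelled D2.B6-(rs29224292-rs13469455)/Bakr and holds B6 sequence on a D2 genome. The markers that bound the stretch differ between the strain names, and the series text names rs51756099 as the distal marker of D2-13B6, so the stretches of the pair need not be identical. All 4 lines were cultured in 15% serum with LIF, 1 µM of the MEK inhibitor PD0325901 and 3 µM of the GSK3 inhibitor CHIR99021, and 100000 cells went into each library. Each genotype was 1 cell line, and the labels call its libraries technical replicates, so SDs and p-values measure how libraries of 1 line vary, and not how lines or mice vary. All 4 genes lie on chromosomes other than 13.

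The primitive endoderm is the extraembryonic layer that separates from the epiblast in the blastocyst and goes on to form the yolk sac endoderm. FGF signalling through MEK induces Gata6, which is mutually antagonistic with the epiblast factor Nanog, and Sox17 and Gata4 follow it in the sequence of commitment. Gata4 and Gata6 are zinc finger proteins that bind GATA motifs, Sox17 is an HMG box protein, and Foxa2 is a forkhead factor able to bind nucleosomal DNA that also serves in definitive endoderm. Inhibition of MEK, as in the medium used here, is known to hold embryonic stem cells away from this fate.

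Library totals over all regions ran from 15198496 to 27293140 counts in B6, 18807653 to 20022534 in B6-13D2, 29172484 to 43042955 in D2-13B6 and 34945034 to 39770267 in D2, so that D2 and D2-13B6 values carry less counting error. Member regions held 6 to 1386 counts per library. D2-13B6 stood apart from the other lines in marker promoters, where a promoter region is the region nearest to an annotated start within 1000 bp. The summed level of 8 fibroblast promoters, among them Col1a1, Twist1 and Pdgfrb, was 131 to 176 normalised CPM (counts per 1000000 of the TMM-scaled library total) in D2-13B6, 88.2 to 93.8 in D2, 68.5 to 75.2 in B6 and 59.9 to 66.4 in B6-13D2. None of the 8 was at 0 in any line. Postn and Thy1, of the same list, did not share this order. Postn was at 1.17 CPM in D2-13B6, 1.21 in B6, 1.28 in B6-13D2 and 0.881 in D2. Thy1 was at 11.3 in D2-13B6, 8.57 in B6, 7.27 in D2 and 6.86 in B6-13D2. The median log2 fold change of all promoter regions for D2-13B6 against B6 was 0.15. Of 14 embryonic stem cell promoters, 9, including those of Nanog, Pou5f1 and Esrrb, were lower in D2-13B6 than in both B6 and D2 on their means and were called at an adjusted p under 0.05 against D2, where 8.04% of all 38070 promoter regions were called in that direction. Klf2, Klf4 and Tbx3, of the same list, had their highest means in D2-13B6, and 4 of the 14 were called higher there than in B6. The part of these differences in the results for D2-13B6 below was not tested, and in a bulk library fewer cells with an open site and less opening per cell cannot be told apart.

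Of the 37 regions, 21 were called in at least 1 of the 5 pairwise comparisons and 16 in none. The same shares over all regions are not given here, so these counts cannot be set against a genome-wide rate. A call is an adjusted p under 0.05 in edgeR's quasi-likelihood test over all 246840 regions tested. The D2 interval on the B6 genome (B6-13D2 against B6) gave 0 calls among the members by edgeR, beside 0.474% of all regions called, and 0 by DESeq2. At the looser threshold of an unadjusted p under 0.05 there were 3 members, and no share of all regions is given for that threshold. The D2 genome without and with a B6 interval (D2 against D2-13B6) gave 7 calls, 5 higher and 2 lower in D2, beside 23.7% of all regions called, 8.53% higher and 15.2% lower. No member was called in both, beside 0.194% of all regions called in both with the same sign. D2 against B6 gave 6 calls, 3 in each direction, where 22.5% of all regions were called, 13.7% higher and 8.8% lower. The genome backgrounds with the B6 interval in both lines (D2-13B6 against B6) gave 18 calls, 3 higher and 15 lower in D2-13B6, beside 41.7% of all regions called, 21.6% higher and 20.1% lower. Both genomes carrying the D2 interval, D2 against B6-13D2, differed in 5 calls, 3 higher and 2 lower in D2, where 18.8% of all regions were called, 11.6% higher and 7.24% lower. In the 2 comparisons of genome background, which share no library, 3 members were called in both with the same sign, beside 15.4% of all regions. The members' share of calls was 48.6% in D2-13B6 against B6 and below that of all regions in the other pairwise comparisons. The median log2 fold change of the 37 in that comparison was -0.46, against -0.13 over all regions. Scaling by total counts in place of TMM shifted the median over all regions, on the log2 scale, by -0.30 for D2-13B6 against B6, -0.13 for both D2 against B6 and D2 against B6-13D2, and 0.17 for D2 against D2-13B6. The members' calls then split 12 higher and 1 lower for D2 against D2-13B6, 2 higher and 9 lower for D2 against B6, and 2 higher and 3 lower when D2 was set against B6-13D2. The split for D2-13B6 against B6 is not given here. Neither are shares of all regions with that scaling, so these splits cannot be set against a genome-wide rate.

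**Figure D1:**
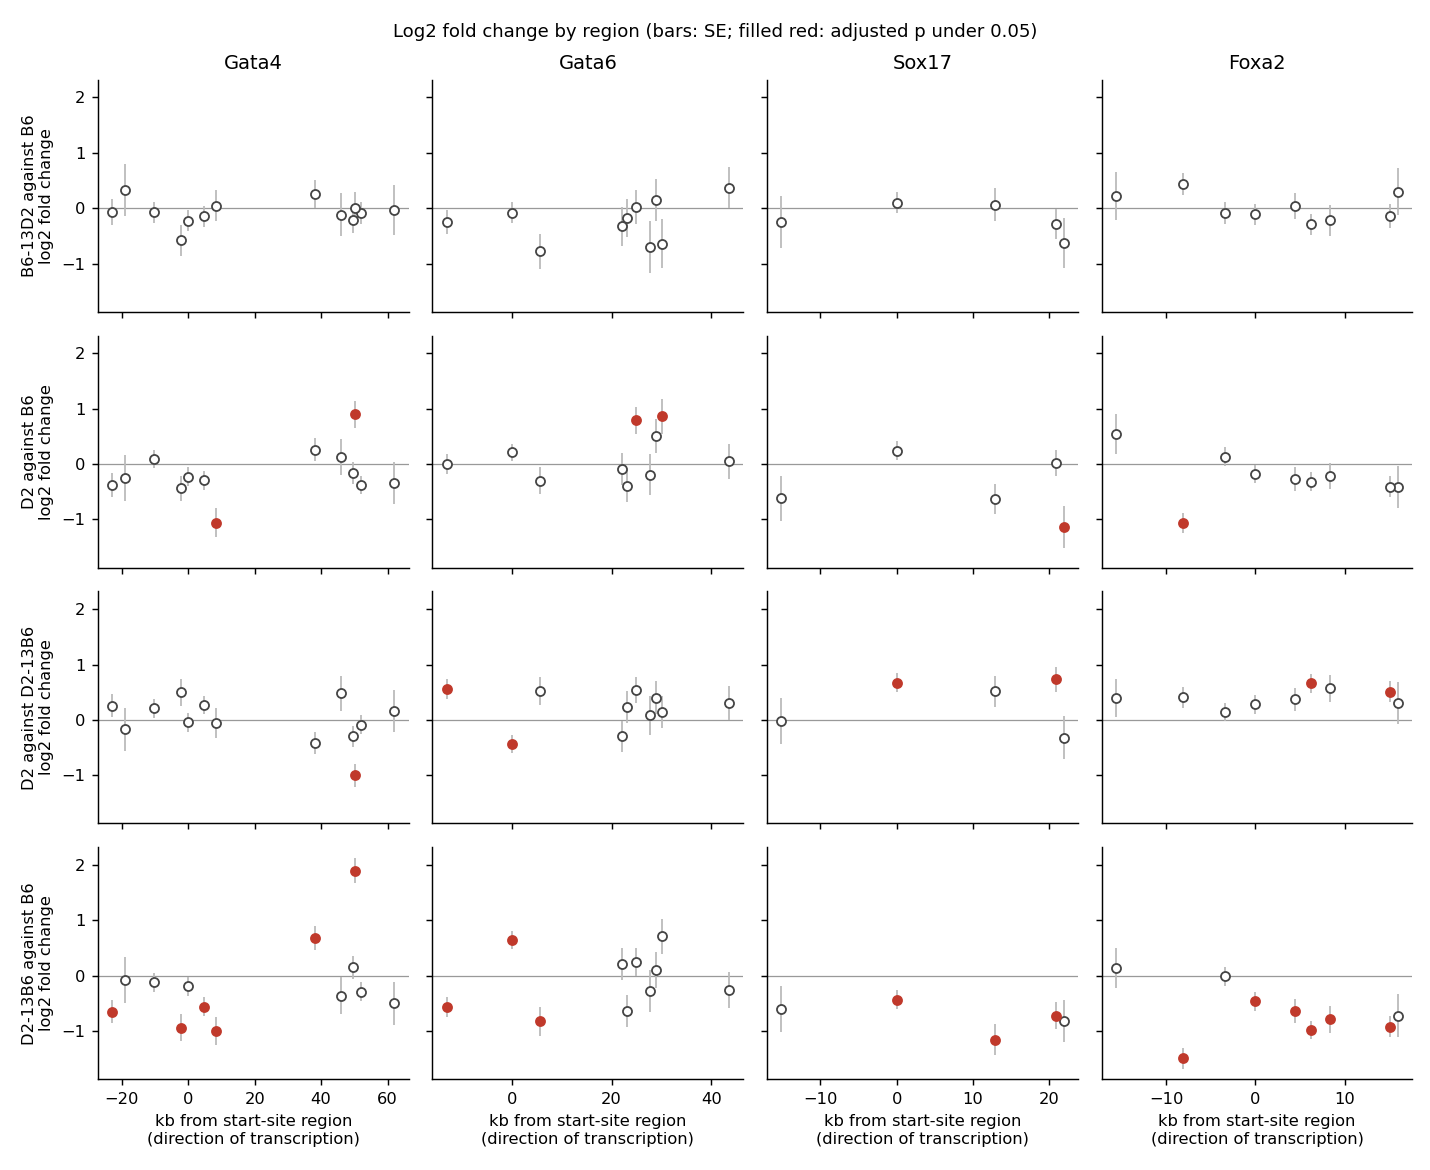
Log2 fold change (y axis, bars: SE) of each of the 37 regions against its distance in kb from the start-site region of its gene in the direction of transcription (x axis), for 4 comparisons (rows) and 4 loci (columns), with called regions filled in red. No point is filled for B6-13D2 against B6, and 18 are filled for D2-13B6 against B6, of which 15 lie below 0.

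The member regions had a median width of 638 bp (547 bp over all regions) and a median level of 3.21 CPM per kb (3.33 over all regions), so they were not among the most open sites of these cells as a group. Their median GC content was 49.8% (48.2% over all regions) and their median CpG observed-to-expected ratio was 0.279 (0.221). GATA motifs were searched as AGATAA and TGATAA on both strands. AGATAA occurred in 11 of the 37 regions, where regions of like width would give 12.5, and TGATAA in 9, where they would give 10.4. The FOXA motif TGTTTAC occurred in 1 region (4.83 at the rate of like-width regions), the SOX motif CCATTGT in 1 (5.43), the ESRRB motif TCAAGGTCA in 1 (1.57) and the octamer ATGCAAAT in 0 (2.52).

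The start-site regions of the 4 genes were open in all 11 libraries. Per kb of region, the mean level over libraries was 8.67 CPM at Sox17, 6.35 at Gata6, 4.72 at Gata4 and 4.19 at Foxa2. By edgeR, 0 of the 4 were called in any comparison among B6, B6-13D2 and D2. For D2 against B6, 24.8% of promoter regions were called higher and 6.6% lower, and for D2 against B6-13D2 19.9% and 5.58%. For B6-13D2 against B6, 0.263% were called in either direction. Of the 4, 0 had an unadjusted p under 0.05 in these comparisons and 0 were called by DESeq2, for which no promoter shares are given. With total counts, Gata4 was lower in D2 than in B6 (-0.36, adjusted p = 0.0409), and without D2 replicate 2 Sox17 was higher in D2 than in B6 (0.46, adjusted p = 0.033). Against B6, D2-13B6 was called higher at Gata6 and lower at Sox17 and Foxa2, beside 37.4% of promoter regions called higher and 17.2% lower. With RLE size factors 1 of the 4 was called higher and 0 lower, and with total counts 1 higher and 3 lower. No promoter shares are given for these scalings.

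**Figure D2:**
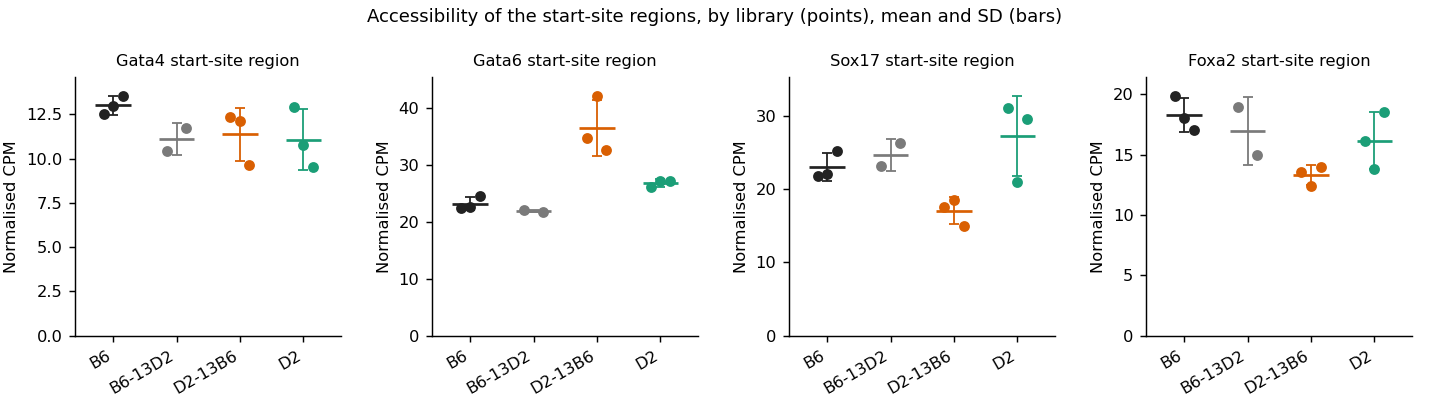
Normalised CPM (y axis, from 0) of the start-site region of each gene in each library (points) of the 4 lines (x axis), with the line's mean and SD as bars. The 3 D2-13B6 libraries sit at 32.6 to 42.0 at Gata6, above all others, and at 15.0 to 18.5 at Sox17, below all others.

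Gata6 (ENSMUSG00000005836.10, chr18:11052064-11085635, plus strand) was the locus whose start site was most open in D2-13B6. Its start-site region, chr18:11051235-11055568, covers coding sequence and starts of Gata6 and the start of the divergent noncoding gene 1010001N08Rik, and all 6 distinct annotated Gata6 starts lay inside regions. It measured 22.4, 22.5 and 24.5 CPM in B6, 22.01 and 21.7 in B6-13D2, 34.7, 42.0 and 32.6 in D2-13B6 and 26.0, 27.2 and 27.1 in D2. The lines did not overlap and ran in the order B6-13D2, B6, D2, D2-13B6, but B6-13D2 did not pass the test against B6 (log2 fold change -0.08, SE 0.19, adjusted p = 0.976), nor did D2 (0.21, SE 0.16, adjusted p = 0.404). D2-13B6 exceeded B6 1.57-fold (log2 fold change 0.65, SE 0.16, adjusted p = 7.23e-04), a call that held in all 17 alternative analyses. D2 was 1.36-fold lower than D2-13B6 (-0.44, SE 0.16, adjusted p = 0.0354), and 12 of 17 alternatives ended that call, with adjusted p-values up to 0.145.

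A region over a Gata6 start inside coding sequence, chr18:11058873-11059359, ran the other way in D2-13B6. It measured 2.73, 1.59 and 2.80 CPM in B6, 1.14 and 1.69 in B6-13D2, 1.53, 1.06 and 1.51 in D2-13B6 and 1.89, 1.93 and 2.06 in D2. D2-13B6 was 1.76-fold lower than B6 (-0.82, SE 0.26, adjusted p = 0.00761), with no overlap between their libraries, and the call ended without B6 replicate 1 (-0.71) or B6 replicate 3 (-0.70). The effect of the D2 interval was -0.78 (SE 0.31, adjusted p = 0.463) on the B6 genome and 0.52 (SE 0.25, adjusted p = 0.136) on the D2 genome, neither of them called. The difference between these effects, the interaction, was -1.29 (SE 0.40, adjusted p = 0.0362), where 6.54% of all regions were called for the interaction, 1.99% with a negative sign. That call ended in 9 of 16 alternatives, among them DESeq2 (-1.22, adjusted p = 0.0525).

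Farther into the gene, 7 intronic or downstream regions of Gata6 were weak, at 0.724 to 2.00 CPM on average. 2 of them were called for D2 against B6, both higher in D2, where 13.7% of all regions were called in that direction. The intronic region chr18:11077996-11078757 measured 1.53, 1.46 and 1.80 CPM in B6, 1.27 and 1.99 in B6-13D2, 1.79, 2.12 and 1.79 in D2-13B6 and 3.04, 2.65 and 2.61 in D2. All 3 D2 libraries lay above the other 8. D2 was 1.73-fold above B6 (0.79, SE 0.24, adjusted p = 0.0118) and 1.70-fold above B6-13D2 (0.77, SE 0.28, adjusted p = 0.0435), and the latter call ended in 5 of 18 alternatives, the former without B6 replicate 1 (0.75) or D2 replicate 1 (0.71). The intronic region chr18:11083283-11083731 measured 0.998, 0.793 and 0.613 CPM in B6, 0.682 and 0.349 in B6-13D2, 1.45, 1.18 and 1.34 in D2-13B6 and 1.61, 1.07 and 1.75 in D2. Both lines with a D2 genome lay above both lines with a B6 genome. D2 was 2.82-fold above B6-13D2 (1.49, SE 0.40, adjusted p = 0.00449, not called without B6-13D2 replicate 2, at 1.11) and 1.81-fold above B6 (0.86, SE 0.32, adjusted p = 0.0427, ended in 6 of 18 alternatives), while D2-13B6 against B6 did not pass (0.71, SE 0.32, adjusted p = 0.0731) except with RLE size factors (0.77, adjusted p = 0.0479). Upstream, an intron of 1010001N08Rik held a region at chr18:11039339-11041323 with 6.09, 6.34 and 8.10 CPM in B6, 4.91 and 6.58 in B6-13D2, 4.23, 4.76 and 4.88 in D2-13B6 and 7.21, 7.01 and 6.25 in D2. There D2-13B6 was below B6 (-0.57, SE 0.18, adjusted p = 0.00884) and below D2 (D2 against D2-13B6 0.56, SE 0.18, adjusted p = 0.0133), opposite in sign to the start-site region. Each of these 2 calls ended where 1 library was left out, B6 replicate 3 (-0.43) for the former and D2-13B6 replicate 1 (0.50) or D2 replicate 1 (0.52) for the latter.

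Gata4 (ENSMUSG00000021944.15, chr14:63198922-63271692, minus strand) was called at its start in no comparison with TMM scaling. Its start-site region, chr14:63244333-63246811, covers an untranslated exon and 2 of the 5 distinct annotated starts. The other 3 starts, the outermost among them, lay in no region. It measured 12.5, 13.0 and 13.5 CPM in B6, 10.5 and 11.8 in B6-13D2, 12.4, 12.2 and 9.66 in D2-13B6 and 12.9, 10.8 and 9.51 in D2. The B6 libraries were highest, overlapped by 1 D2 library at 12.9, and the other 3 lines overlapped each other. The log2 fold changes of the pairwise comparisons lay from -0.23 to 0. With total counts D2-13B6 was called lower than B6 there (-0.49, adjusted p = 0.00171), as D2 was. The most open region of the locus, chr14:63254969-63256923 in an intron, averaged 17.1 ± 2.32 CPM (SD, n = 3) in D2, 14.8 ± 3.25 (n = 3) in D2-13B6, 15.3 ± 0.85 (n = 2) in B6-13D2 and 16.1 ± 0.69 (n = 3) in B6, and was called in no comparison with TMM scaling. With total counts it was lower in D2-13B6 than in B6 (-0.43, adjusted p = 0.00335) and higher in D2 than in D2-13B6 (0.40, adjusted p = 0.0113).

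The 6 called regions of Gata4 lay 2093 to 18016 bp from its nearest annotated start. Of these, 2 regions were called with the same sign in both comparisons of genome background, and the most motif-rich 300 bases of the one downstream of the gene are shown because it is the member called in the most comparisons. The sequence is the GRCm38 reference, which is C57BL/6J, plus strand, and matches to AGATAA or TGATAA on either strand are in capitals. DBA/2J sequence was not examined, and the effect of its differences from this reference on the counts of D2-genome lines was not tested.
Downstream of Gata4, chr14:63195133-63195432: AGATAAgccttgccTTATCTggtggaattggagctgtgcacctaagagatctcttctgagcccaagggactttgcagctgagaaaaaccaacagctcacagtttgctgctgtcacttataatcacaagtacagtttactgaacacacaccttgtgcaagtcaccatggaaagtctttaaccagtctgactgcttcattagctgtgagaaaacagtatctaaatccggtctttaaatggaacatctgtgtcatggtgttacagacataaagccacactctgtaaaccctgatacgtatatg

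The downstream region, chr14:63195127-63195591, is intergenic, beyond the 3′ end of Gata4 and nearer to the start of Neil2, a DNA glycosylase gene 1271 bp away. It held 2 AGATAA matches, on opposite strands at positions 1 and 15 of the window printed, and 21.1% of all regions of like width held this motif. It measured 1.20, 1.65 and 1.71 CPM in B6, 1.59 and 1.395 in B6-13D2, 5.53, 6.97 and 4.23 in D2-13B6 and 2.59, 3.40 and 2.38 in D2. Both B6-genome lines were low, D2 was higher than each of them and D2-13B6 higher still, with no overlap between D2 and either side. D2-13B6 was 3.74-fold above B6 (1.90, SE 0.23, adjusted p = 2.13e-10), D2 1.87-fold above B6 (0.90, SE 0.24, adjusted p = 0.00335) and 1.86-fold above B6-13D2 (0.90, SE 0.28, adjusted p = 0.0148), and D2 2.00-fold below D2-13B6 (-1.0, SE 0.21, adjusted p = 1.03e-04). This was the one member called in 4 comparisons. Without B6 replicate 1, D2 against B6 no longer passed (0.73), and neither did D2 against B6-13D2 without either B6-13D2 library (0.81 and 1.00).

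The intronic region, chr14:63236980-63237571, went the other way and held none of the motifs searched. It measured 2.129, 3.29 and 2.23 CPM in B6, 2.46 and 2.69 in B6-13D2, 0.961, 1.30 and 1.51 in D2-13B6 and 1.30, 1.31 and 0.974 in D2. The 5 B6-genome libraries lay above all 6 D2-genome libraries. D2 was 2.09-fold below B6 (-1.06, SE 0.26, adjusted p = 0.00131) and 2.14-fold below B6-13D2 (-1.10, SE 0.29, adjusted p = 0.00344, not called without B6-13D2 replicate 2), and D2-13B6 2.01-fold below B6 (-1.0, SE 0.26, adjusted p = 0.00117). D2 and D2-13B6 did not differ beyond their spread (-0.06, SE 0.27, adjusted p = 0.908). A further intronic region, chr14:63206990-63207566, held the only ESRRB motif among the members and was 1.60-fold higher in D2-13B6 than in B6 (0.68, SE 0.21, adjusted p = 0.0072), a call lost with total counts (0.37) and without D2-13B6 replicate 2 (0.53). The other 3 called regions of Gata4 were lower in D2-13B6 than in B6, by log2 fold changes of -0.94, -0.65 and -0.56, and were called in no other comparison.

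Foxa2 (ENSMUSG00000037025.11, chr2:148042877-148046969, minus strand) had 6 of its 9 regions called lower in D2-13B6 than in B6 and 0 called higher, where 20.1% of all regions were called lower and 21.6% higher. The median log2 fold change of the 9 was -0.72. The Foxa2 promoter, the one of the 4 present in the RefSeq promoter table (GRCm38.p6), and the distal window with a called difference of genome background are printed to set the start next to the region with the largest called fold change of the locus. The promoter is given on the minus strand, 5′ to 3′, from 250 bases before the start, and the distal window on the plus strand with its 2 TGATAA matches, both on the minus strand, in capitals.
Foxa2 promoter, chr2:148046970-148047219: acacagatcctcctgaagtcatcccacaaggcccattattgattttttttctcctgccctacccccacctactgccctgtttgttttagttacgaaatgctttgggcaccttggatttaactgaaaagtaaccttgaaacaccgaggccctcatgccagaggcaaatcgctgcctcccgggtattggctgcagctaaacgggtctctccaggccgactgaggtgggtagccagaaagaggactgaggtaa
Upstream of Foxa2, chr2:148053373-148053672: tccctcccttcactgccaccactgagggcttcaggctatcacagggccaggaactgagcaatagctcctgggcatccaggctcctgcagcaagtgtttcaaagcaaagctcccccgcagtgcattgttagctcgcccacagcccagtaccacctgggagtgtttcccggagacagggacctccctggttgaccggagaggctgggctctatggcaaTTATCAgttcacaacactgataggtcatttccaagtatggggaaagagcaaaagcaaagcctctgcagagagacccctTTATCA

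The promoter window held 6 CG dinucleotides, the median of the 32851 promoters in that table, and none of the motifs searched. AGATAA occurred in 9.99% of those promoters, TGATAA in 7.94%, TGTTTAC in 3.17% and CCATTGT in 3.02%. The start-site region around it, chr2:148043401-148047242, covers the coding sequence and all 4 annotated starts. It measured 19.8, 18.0 and 17.0 CPM in B6, 18.96 and 15.0 in B6-13D2, 13.6, 12.4 and 14.0 in D2-13B6 and 16.1, 13.8 and 18.5 in D2. D2-13B6 lay 1.37-fold below B6 (-0.46, SE 0.17, adjusted p = 0.0214), without overlap, and this call was lost with RLE size factors (-0.39), without B6 replicate 1 (-0.39) and with these 2 lines alone (-0.39). The D2 libraries overlapped those of both B6 and D2-13B6, and with total counts D2 was called higher than D2-13B6 (0.44, adjusted p = 0.00897).

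The upstream region, chr2:148052919-148053968, lies 5950 bp from the nearest Foxa2 start and covers an exon and the start of the noncoding gene Gm27420. It measured 9.51, 7.07 and 8.71 CPM in B6, 11.9 and 11.1 in B6-13D2, 2.52, 2.94 and 3.68 in D2-13B6 and 4.10, 3.27 and 4.73 in D2. The lowest B6-genome library was above the highest D2-genome library. Whether differences between D2 sequence and the reference lowered the counts of D2-genome lines here was not tested. D2 was 2.11-fold below B6 (-1.07, SE 0.18, adjusted p = 6.4e-06) and 2.85-fold below B6-13D2 (-1.51, SE 0.20, adjusted p = 3.01e-08), and D2-13B6 was 2.80-fold below B6 (-1.49, SE 0.19, adjusted p = 7.83e-10). These 3 calls held in every alternative run. The interval effects were 0.44 (SE 0.20, adjusted p = 0.59) on the B6 genome and 0.41 (SE 0.19, adjusted p = 0.115) on the D2 genome, neither called. The latter was called with total counts (0.58, adjusted p = 0.0133), without D2-13B6 replicate 3 (0.56, adjusted p = 0.0284) and without D2 replicate 2 (0.59, adjusted p = 0.0216). TGATAA occurred in 31.1% of regions of like width and AGATAA, which the region held once outside the printed window, in 38.1%.

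**Figure D3:**
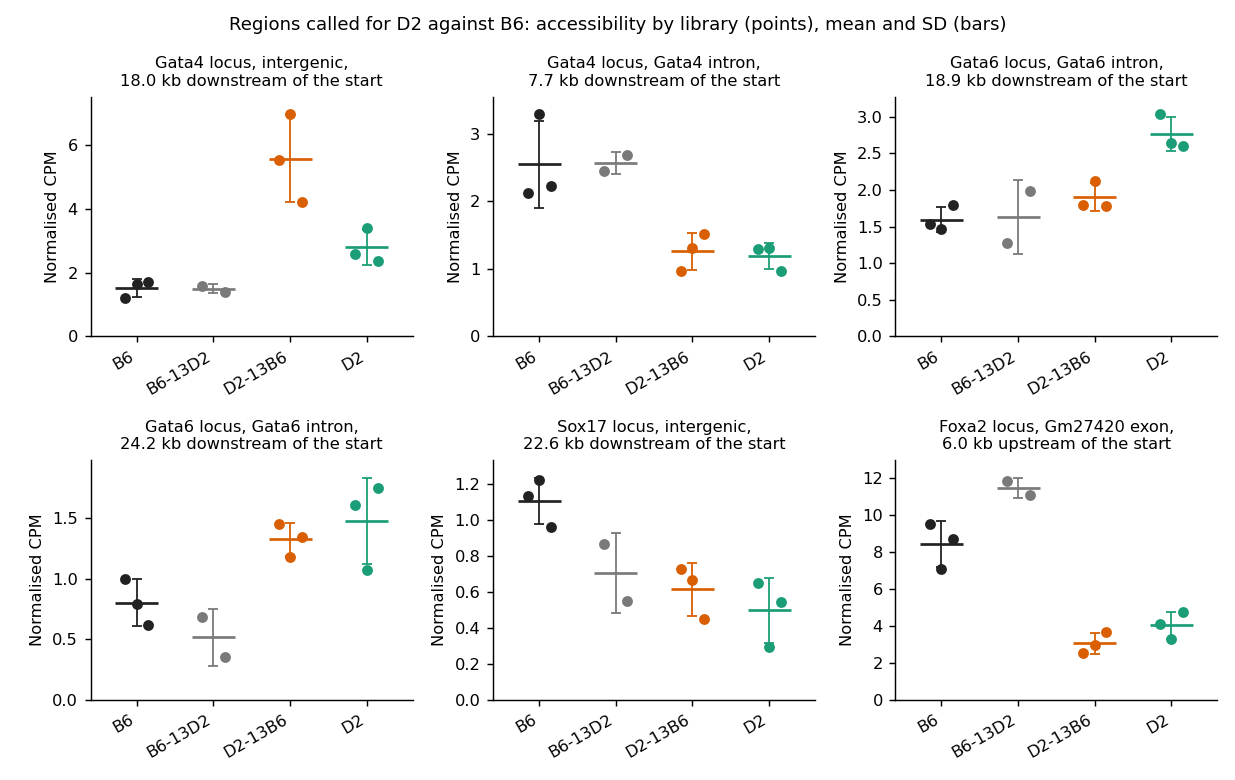
Normalised CPM (y axis, from 0) of the 6 member regions called for D2 against B6 in each library (points) of the 4 lines (x axis), with mean and SD as bars. At the Gata4 intron and upstream of Foxa2 the 5 libraries of B6 and B6-13D2 lie above the 6 of D2-13B6 and D2, and downstream of Gata4 and at the far Gata6 intron they lie below.

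Downstream of Foxa2, the region chr2:148037785-148040353 over the start of the noncoding gene 9030622O22Rik was the member with the smallest interaction p. It measured 9.75, 9.76 and 10.5 CPM in B6, 8.46 and 7.92 in B6-13D2, 5.35, 5.06 and 4.78 in D2-13B6 and 8.30, 7.09 and 8.59 in D2. B6 was highest, D2-13B6 lowest, and D2 and B6-13D2 overlapped between them. D2 was not called against B6 (-0.32, SE 0.17, adjusted p = 0.167) except with total counts (-0.45, adjusted p = 0.0169). D2 was 1.58-fold above D2-13B6 (0.66, SE 0.17, adjusted p = 0.00197) and D2-13B6 1.97-fold below B6 (-0.98, SE 0.17, adjusted p = 2.18e-06), both held in all 17 alternatives. The interval effect on the B6 genome was -0.29 (SE 0.19, adjusted p = 0.815), and the interaction was -0.94 (SE 0.26, adjusted p = 0.0163), no longer called without either B6-13D2 library (adjusted p = 0.0667 and 0.109) or D2 replicate 1 (adjusted p = 0.0502). In an intron of the same noncoding gene, chr2:148029766-148030907 averaged 4.33 ± 0.34 CPM (SD, n = 3) in D2, 3.05 ± 0.35 (n = 3) in D2-13B6, 5.24 ± 0.50 (n = 2) in B6-13D2 and 5.75 ± 0.56 (n = 3) in B6, and D2-13B6 was 1.89-fold below B6 (-0.92, SE 0.19, adjusted p = 5.41e-05). D2 exceeded D2-13B6 there by 0.51 (SE 0.19, adjusted p = 0.0399), a call lost in 7 of 17 alternatives. D2 lay below B6 without overlap but was not called (-0.41, SE 0.19, adjusted p = 0.105). It was called with total counts (-0.54, adjusted p = 0.0199), in the fit of only D2 and B6 (adjusted p = 0.0497) and in the fit without D2-13B6 (adjusted p = 0.0475).

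Sox17 (ENSMUSG00000025902.13, chr1:4490931-4497354, minus strand) was the gene whose start was least open in D2-13B6 relative to D2. Its start-site region, chr1:4491466-4494102, covers coding sequence and 2 of 8 distinct annotated starts, and the other starts lay up to 3252 bp from a region. It measured 21.8, 22.1 and 25.2 CPM in B6, 23.2 and 26.3 in B6-13D2, 17.6, 18.5 and 15.0 in D2-13B6 and 31.1, 20.9 and 29.6 in D2. The D2 libraries spread widely and overlapped those of B6 and B6-13D2, but all 3 lay above D2-13B6. D2 was 1.59-fold above D2-13B6 (0.67, SE 0.17, adjusted p = 0.00144), a call that held in all 17 alternatives. D2-13B6 was 1.35-fold below B6 (-0.43, SE 0.17, adjusted p = 0.034), which was lost in 7 of 17 alternatives, RLE size factors and DESeq2 among them (-0.36 each). The interaction at this start was -0.57 (SE 0.25, adjusted p = 0.174), and it was called with total counts (-0.75, adjusted p = 0.00643) and without D2 replicate 2 (-0.78, adjusted p = 0.028).

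Beyond the 3′ end of Sox17, the intergenic region chr1:4471314-4472467 was likewise lowest in D2-13B6. It measured 2.33, 3.597 and 2.63 CPM in B6, 1.91 and 2.69 in B6-13D2, 1.56, 1.45 and 2.132 in D2-13B6 and 2.98, 2.97 and 2.55 in D2. D2 was 1.66-fold above D2-13B6 (0.73, SE 0.23, adjusted p = 0.0121) and D2-13B6 1.64-fold below B6 (-0.72, SE 0.24, adjusted p = 0.0118), and 3 of 17 alternatives, all of them leaving out a library, ended each call. The neighbouring chr1:4470755-4471000 was weak, at 1.13, 1.22 and 0.963 CPM in B6, 0.864 and 0.548 in B6-13D2, 0.727, 0.667 and 0.447 in D2-13B6 and 0.648, 0.295 and 0.544 in D2. There D2 was 2.21-fold below B6 (-1.14, SE 0.38, adjusted p = 0.0222), not called without B6 replicate 1 (-1.12), B6 replicate 2 (-1.08) or D2 replicate 2 (-0.81). Of the 5 Sox17 regions, 3 were called lower in D2-13B6 than in B6 and 0 higher, where 20.1% of all regions were called lower. The remaining called one, 13455 bp from the nearest Sox17 start, was 2.23-fold lower (-1.16, SE 0.28, adjusted p = 0.0005). Its B6-genome libraries all lay above its D2-genome libraries, but D2 against B6 was not called (-0.63, adjusted p = 0.0798).

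Summed over all regions of a locus, D2-13B6 overlapped neither B6 nor D2 at Gata6, Sox17 and Foxa2. The Sox17 sum was 32.5 ± 5.32 CPM (SD, n = 3) in D2, 20.9 ± 1.46 (n = 3) in D2-13B6, 30.7 ± 3.76 (n = 2) in B6-13D2 and 30.03 ± 2.02 (n = 3) in B6. The Foxa2 sum was 47.2 ± 5.02, 36.6 ± 1.01, 56.4 ± 4.27 and 57.3 ± 2.58 CPM in the same order, so that D2-13B6 was lowest and D2 lay between it and B6 without overlap. The Gata6 sum was 45.6 ± 0.689, 51.0 ± 4.72, 36.8 ± 2.58 and 40.7 ± 3.05 CPM, with D2-13B6 highest, and 62.4% of it came from the start-site region. The log2 ratio of D2 to D2-13B6 for this sum, -0.16, became 0.01 with total counts. The Gata4 sum was 66.2 ± 6.69, 66.6 ± 9.45, 68.3 ± 4.50 and 73.8 ± 0.370 CPM. The D2-13B6 libraries, at 56.5 to 75.3, enclosed the B6 libraries, at 73.6 to 74.3, and overlapped those of D2 and B6-13D2. In 3 against 3 libraries the two-sided exact permutation test cannot go below p = 0.1, and D2-13B6 against B6 reached it for Gata6 (1.25-fold higher), Sox17 (1.44-fold lower) and Foxa2 (1.56-fold lower), as did D2 against D2-13B6 for the same 3 genes and D2 against B6 for Gata4, Gata6 and Foxa2. Over the 20 tests the smallest Benjamini-Hochberg adjusted p was 0.222, and no sum passed the threshold. Regions within 500000 bp of each locus, other than the members, had median log2 fold changes for D2-13B6 against B6 of 0.14 at Gata4, 0.03 at Gata6, -0.38 at Sox17 and 0.10 at Foxa2, where the members' medians were -0.29, -0.08, -0.72 and -0.72.

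The other genes of the primitive endoderm program were taken from a list of 18, of which 15 had a promoter region (14 regions, since Col4a1 and Col4a2 share one). In D2-13B6 against B6, 7 of the 14 were called, 5 higher and 2 lower, beside 37.4% of all promoter regions called higher and 17.2% lower. The endocytic adaptor gene Dab2 had the largest change among them (log2 fold change 1.68, from 9.56 CPM in B6 to 30.9 in D2-13B6), with the basement membrane genes Lamc1 (0.61), Col4a1 and Col4a2 (0.64) and Sparc (0.61), and the receptor gene Pdgfra (0.52), also higher. The liver and visceral endoderm genes Hnf4a (-0.70) and Afp (-0.66) were lower. The summed fibroblast promoters were also higher in D2-13B6, and the part of that difference in these calls was not tested. Among the members, the Gata6 start-site region was called higher in D2-13B6 than in B6, and those of Sox17 and Foxa2 lower. The Sox17 and Foxa2 calls were lost with RLE size factors, and a link between the members and the listed genes was not tested. For D2 against D2-13B6, 4 were called, all lower in D2 (Pdgfra, Dab2, Sparc and Srgn), where 15.8% of promoter regions were called lower and 8.04% higher. For D2 against B6 there were 4 calls, 3 higher and 1 lower, beside 24.8% and 6.6% of promoter regions. Set against B6-13D2, D2 had 2 calls, both higher, where 19.9% of promoter regions were called higher and 5.58% lower. B6-13D2 against B6 gave 0 calls by edgeR, beside 0.263% of promoter regions, and 0 by DESeq2. It also gave 0 at an unadjusted p under 0.05, for which no share of promoter regions is given. With total counts the splits became 4 higher and 6 lower for D2-13B6 against B6, 5 and 3 for D2 against D2-13B6, and 3 and 3 for D2 against either B6 or B6-13D2. With RLE size factors D2 against B6 became 1 and 1. No shares of promoter regions are given for these scalings. The summed level of the 14 was 233 to 245 CPM in B6, 223 to 237 in B6-13D2, 259 to 367 in D2-13B6 and 257 to 282 in D2.

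**Figure D4:**
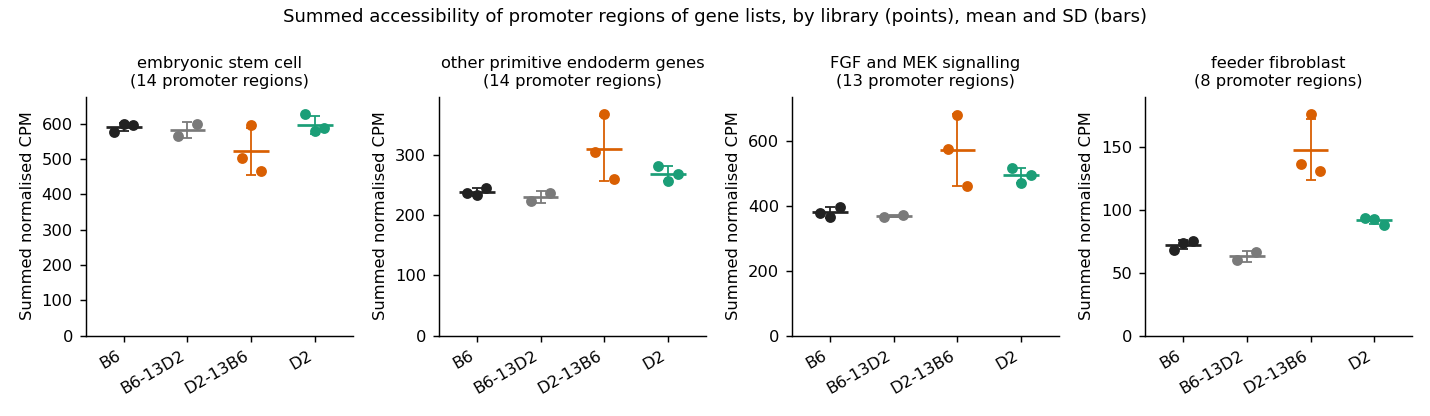
Summed normalised CPM (y axis, from 0) of the promoter regions of 4 gene lists in each library (points) of the 4 lines (x axis), with mean and SD as bars. The fibroblast promoters of the 3 D2-13B6 libraries sum to 131 to 176, above the other 8 libraries. Those of embryonic stem cell genes sum to 466 to 596 in D2-13B6, which overlaps 578.4 to 599.5 in B6, 566.1 to 598.4 in B6-13D2 and 578.7 to 627.1 in D2.

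Upstream of these factors, 11 of 13 promoter regions of FGF and MEK signalling genes were called for D2-13B6 against B6, where 37.4% of all promoter regions were called higher and 17.2% lower, shares that apply to each list below. The ligand gene Fgf4 was lower (-0.95), and 10 were higher, among them the kinase gene Map2k1 (1.04), the target gene Etv5 (0.91) and the receptor gene Fgfr1 (0.80). For D2 against B6, 5 of the 13 were called, all higher, beside 24.8% of promoter regions. Of 14 embryonic stem cell promoters, 13 were called for D2-13B6 against B6, 9 lower and 4 higher. Of 8 fibroblast promoters, 6 were called, all higher, and 7 were called lower in D2 than in D2-13B6, beside 15.8% of promoter regions. Trophoblast promoters had 6 of 11 called for D2-13B6 against B6, 1 higher and 5 lower, and definitive endoderm promoters, of the layer in which Foxa2 and Sox17 are also used, 2 of 8, 1 in each direction. Among 8 family relatives of the members, 4 were called, Gata3 (0.65) and Foxa3 (0.69) higher and Gata5 (-0.45) and Sox18 (-0.40) lower. The lists share genes, so some calls count in more than 1 list. Gata3 is also the 1 trophoblast promoter called higher and Foxa3 the 1 definitive endoderm promoter called higher. Fgf4 is on the embryonic stem cell list too. With RLE size factors or total counts the splits, higher and lower, for D2-13B6 against B6 were 10 and 1 or 7 and 1 for FGF and MEK signalling, 4 and 9 or 2 and 10 for embryonic stem cell genes, 7 and 0 or 6 and 0 for fibroblast genes, 1 and 4 or 1 and 10 for trophoblast genes, 3 and 1 or 1 and 2 for definitive endoderm genes, and 2 and 0 or 2 and 5 for the relatives. No shares of promoter regions are given for these scalings. With TMM the median log2 fold change of all promoter regions in that comparison was 0.15.

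The start-site regions of the 4 genes were also set against the promoter regions of 27241 genes by Pearson's r of log2 CPM over the 11 libraries, as a description; the points share libraries and depth. The patterns most like Gata6 were those of Mir5625, Gm28872 and Rnf165 (r = 0.993 each), all highest in D2-13B6. Those most like Sox17 were Mup6 (0.983), Vsx1 (0.977) and Lrrn4 (0.966), all lowest in D2-13B6, as were Gm15825 (0.951) and Gm9001 (0.923), which were among those most like Foxa2. Those most like Gata4 were B130046B21Rik (0.946), Cyp2d22 (0.907) and Upk1a (0.898), all highest in B6.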

How the data were processed

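Accessibility was measured in 11 ATAC-seq libraries of 4 lines, prepared with FAST-ATAC and read at 150 bp per the labels' protocols. The authors deposited a single table of whole-number counts for 248336 regions, without normalization; per the file headers, duplicates and mitochondrial reads had been removed. The submitters' processing notes name Trimmomatic 0.39, BWA 0.7.5, Picard 2.0.1, MACS 1.4.2, bedtools 2.9.2, edgeR 3.34.1 and the build mm10 (GRCm38), with no parameters. Whether reads or fragments were counted and whether cut sites were shifted is not given in the sources used here. Coordinates are printed as the table lists them, since it does not state if starts count from 0 or 1, and annotation is GENCODE M21.

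edgeR 4.0.16 (R 4.3.3) fitted all 11 libraries with 1 coefficient per line, TMM normalization, filterByExpr by line and robust quasi-likelihood. Benjamini-Hochberg adjustment ran over all 246840 regions that passed the filter, with a threshold of 0.05, and the script was tested on simulated data. The interaction is the effect of the D2 interval on the B6 genome minus its effect on the D2 genome. Comparisons that share a line share its libraries. Locus sums were compared by two-sided exact permutation tests (SciPy 1.17.1).

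Alternatives were RLE size factors, total counts, no filter, DESeq2 1.42.0, fits of only the lines compared, the replicate number as a block and leaving out each library. Added after the data were seen were a fit without D2-13B6 and a Gata4 sum without the 5 regions nearest to another protein-coding gene. Replicate numbers did not pair the libraries: same-numbered libraries had correlations of deviations from the line means of -0.0486 to 0.0683. Pairs of libraries of a line differed by a chi-square per degree of freedom of 2.06 to 6.33, so none was a copy. It was 4.54 to 6.33 in D2-13B6, 2.98 to 4.12 in D2, 2.06 to 2.27 in B6 and 2.11 in B6-13D2. The libraries of D2-13B6 and D2 were also deeper. Intervals and errors cover counting and library spread only.

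Regions named are the start-site region and the 2 most open regions of each locus and, per comparison, up to 3 called regions per direction, by smallest p, whose lines did not overlap. A gene among those most like Foxa2 and a sequence window are not reported here. Likeness used promoter regions with a mean of at least 1 CPM and a prior count of 2. The gene lists are other primitive endoderm, embryonic stem cell, trophoblast, fibroblast, definitive endoderm, FGF and MEK signalling genes and family relatives. Members and lists were chosen with earlier results of these data known.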

Additional observations from a re-analysis of the deposited data

Results flagged for a closer look

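At 2 of the 37 member regions (5.41%, beside 6.54% of all regions) the interaction, the difference between the effects of the D2 interval on the B6 and D2 genomes, was called. For the region chr18:11058873-11059359, over a start inside Gata6 coding sequence, the interaction was -1.29 on the log2 scale (SE 0.40, adjusted p = 0.0362 by edgeR). For chr2:148037785-148040353, over the 9030622O22Rik start downstream of Foxa2, it was -0.94 (SE 0.26, adjusted p = 0.0163). Adjusted p-values over the alternatives ran from 0.0202 to 0.229 for the former and from 0.00102 to 0.109 for the latter, and the former call ended in 9 of 16 alternatives. D2-13B6 had the lowest mean of the 4 lines at both regions, 1.37 and 5.06 CPM. The summed level of the fibroblast promoters was highest in the same line, and the part of that difference was not tested. Groups of 2 or 3 libraries were too small for a search for outlying libraries.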

How the results depend on the processing

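Counts of member calls moved by more than 1.5 times with total counts, to 13 from 7 for D2 against D2-13B6, to 11 from 6 for D2 against B6 and to 6 from 2 for the interaction. For the interaction, 1 member was called with the replicate block and 1 with DESeq2; the block moved no other count of calls by that much. Leaving out each library gave 3 to 7 calls for D2 against B6 (3 without B6 replicate 1), 3 to 9 for D2 against D2-13B6 (3 without D2 replicate 1, 4 without D2-13B6 replicate 1), 14 to 19 for D2-13B6 against B6, 2 to 5 for D2 against B6-13D2 (2 without B6-13D2 replicate 2), 0 to 6 for the interaction and 0 for B6-13D2 against B6. The interaction counts were 0 without either B6-13D2 library or D2 replicate 1, 1 without B6 replicate 1 or 3, 4 without D2 replicate 2 and 6 without D2-13B6 replicate 3. Calls among the other primitive endoderm promoters were 2 for D2 against B6 with RLE size factors, with total counts 8 when D2 was set against D2-13B6 and 6 against B6-13D2, and 1 for the interaction with DESeq2. Shares of all regions and of promoter regions under the alternatives are not given here, so these counts cannot be set against a genome-wide rate.

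Log2 ratios of locus sums changed sign with total counts at Gata4 (0.17) and Gata6 (0.01) for D2 against D2-13B6, and at Sox17 when D2 was set against B6 (-0.02) or B6-13D2 (-0.04). The Gata4 ratio for D2 against D2-13B6 was 0.11 without the regions nearest to Neil2 and Fdft1. Leaving out a library gave signs of both kinds for Gata4 in D2 against D2-13B6 (-0.11 to 0.09) and D2 against B6-13D2 (-0.11 to 0.03), for Sox17 in B6-13D2 against B6 (-0.10 to 0.15) and D2 against B6-13D2 (-0.04 to 0.21), and for Foxa2 in B6-13D2 against B6 (-0.10 to 0.05). The cause of these changes was not tested. Of 1766 values of named regions under the alternatives, 1664 kept their direction and side of the threshold, 75 lost a call, 27 gained one and 0 reversed. A further 2 had no adjusted p from DESeq2. With 1 line per genotype, differences between genotypes and between lines cannot be told apart, and regions with few counts were measured least precisely.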
